A study of Arabidopsis thaliana with 8 samples.

Results

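In roots of Arabidopsis thaliana, 63 probe sets stood higher on every iron-deficient wild-type array than on every iron-sufficient one and showed no comparable increase in fit plants. They were chosen from 22746 probe sets by their log2 signal. The lowest WT -Fe array had to exceed the highest WT +Fe array by at least 1, and the mean of fit -Fe had to exceed the mean of fit +Fe by less than 0.5. Of 76 probe sets within both limits, 13 that name genes set aside by the rule were left out, among them the coumarin genes AT3G13610 and BGLU42 and the metal transporter ZIP9. Of the 63, 24 name 1 gene and 39 are unnamed here and appear by their probe set identifier. All 8 arrays took part in the choice, so the levels below describe the chosen genes and do not test them.

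WT and fit plants were compared. The fit plants are mutated in FIT, and the allele is not given in the sources used here. No probe set names FIT alone, so its signal could not be used to check the mutation. All plants grew for 14 days on Gamborg medium and were then moved to a basal agar medium for 3 days. In the WT +Fe and fit +Fe groups that medium held 50 µM Fe(III)-EDTA, and in the WT -Fe and fit -Fe groups it held no added iron and 300 µM ferrozine, which chelates ferrous iron. Root RNA of 2 biological replicates per group was hybridised to Affymetrix arrays, 8 in all, and values are signal intensities after RMA on the log2 scale.

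Arabidopsis takes up iron by reducing it at the root surface and importing the ferrous ion. FIT is a basic helix-loop-helix transcription factor of the root epidermis that pairs with the subgroup Ib factors and is required for induction of the reductase and the importer. The subgroup Ib factors, the IRON MAN peptides and the repressor PYE are controlled upstream of FIT or beside it, and plants without FIT are known to be chlorotic unless given extra iron.

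Before the results, the condition of the arrays is given. Ubiquitin, actin and GAPDH carry control probes at either end of the transcript, and the geometric mean of the 3' to 5' signal ratios over 6 pairs was 3.84 on WT -Fe replicate 2 and 5.91 on fit -Fe replicate 2, against 1.43 to 2.03 on the other 6 arrays. The labelled tissue could be checked against few markers. A gene counts as measured here where a probe set names it alone. Other genes may have signal among the 8730 probe sets that name no gene. Of 11 root epidermis and root hair markers 2 were measured, the expansins EXPA7 and EXPA18, with a summed intensity on the linear scale of 547 and 938 in WT +Fe, 717 and 1091 in WT -Fe, 872 and 989 in fit +Fe and 357 and 424 in fit -Fe. Of 7 shoot photosynthesis markers 3 were measured, RCA, LHCB4.1 and PORB, with sums between 590 and 598 in WT +Fe, 380 and 477 in WT -Fe, 507 and 674 in fit +Fe, and 448 and 471 in fit -Fe. These sums do not tell whether a transcript was detected, because RMA gives every probe set a signal above 0. The markers of endodermis, stele, root meristem and root cap had no probe set naming them alone. The root hair sum was thus lowest in fit -Fe, where most of the chosen genes stayed near their WT +Fe level, and its part in that result was not tested. In whole roots, fewer cells of a type and less RNA per cell cannot be told apart.

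The 63 probe sets spanned most of the signal range. Their mean log2 signal in WT +Fe ran from 4.06 to 11.83 with a median of 7.36, and in WT -Fe from 6.04 to 13.45 with a median of 9.27. On both WT -Fe arrays 38 of them lay above the 75th percentile of all probe sets, and on both WT +Fe arrays 18 did. At the dim end, 8 had a WT +Fe mean under 4.96, the 25th percentile of all probe sets, where RMA compresses differences. They were AT2G19410, AT5G06490, AT4G10510, 253502_at, 252145_at, 253503_at, 245945_at and 267137_at.

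The choice fixed the increase in WT, whose size is a description. The increase ran from 1.12 to 6.30 on the log2 scale, with a median of 1.69, against -0.01 over all probe sets. It was at least 4-fold in 16 probe sets and at least 8-fold in 4. limma called 37 of the 63 higher at a Benjamini-Hochberg adjusted p under 0.05, against 0.356% of all probe sets, and nothing is read from that count because the same arrays chose the members. It was 4 and 9 without WT -Fe replicate 1 or 2, 5 and 3 without WT +Fe replicate 1 or 2, and 12 without either fit +Fe array, although that array enters only through the pooled spread. The median increase was 1.82 on WT -Fe replicate 1 and 1.56 on replicate 2, the array of high control ratio.

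**Figure D1:**
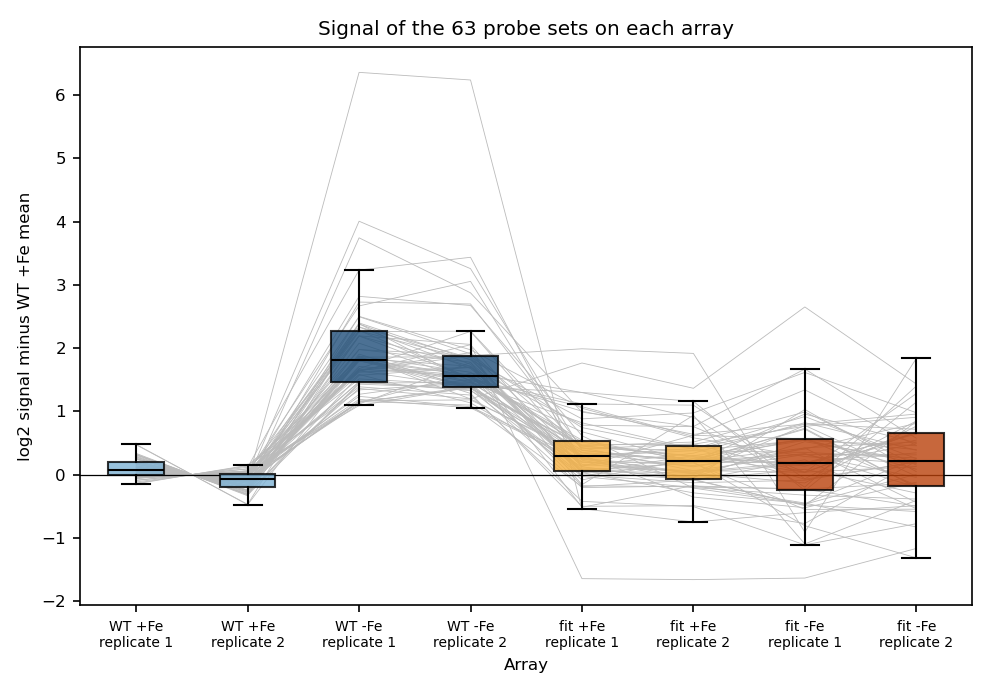
The log2 signal of each of the 63 probe sets minus its WT +Fe mean is drawn by array, with 1 grey line per probe set and a box from the lower to the upper quartile whose central line is the median. The medians of the WT -Fe arrays are 1.82 and 1.56, and the boxes of all 4 fit arrays lie near the WT +Fe level.

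In fit the median change under iron deficiency was 0.01, with 32 probe sets above 0 and 31 below. It ran from -1.50 to 0.48, the upper end being set by the rule, and 55 of the 63 lay within 0.5 of 0. limma called 0 of the 63 in either direction, against 0.132% of all probe sets called higher and 0.0703% called lower, while 4 of the 63 and 1938 of all had an unadjusted p under 0.05. Without fit -Fe replicate 2, 1 was called. Both fit -Fe arrays lay above both fit +Fe arrays for 10 of the 63, against 19.4% of all probe sets, and below them for 13, against 16.4%. Taken singly, fit -Fe replicate 1 had a median of 0.02 above the fit +Fe mean, and fit -Fe replicate 2, the array of highest control ratio, had a median of -0.10. The replicates of fit -Fe differed by more than 1 for 7 of the 63, and their median SD over the 63 was 0.32, against 0.12 in fit +Fe, 0.14 in WT +Fe and 0.18 in WT -Fe.

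**Figure D2:**
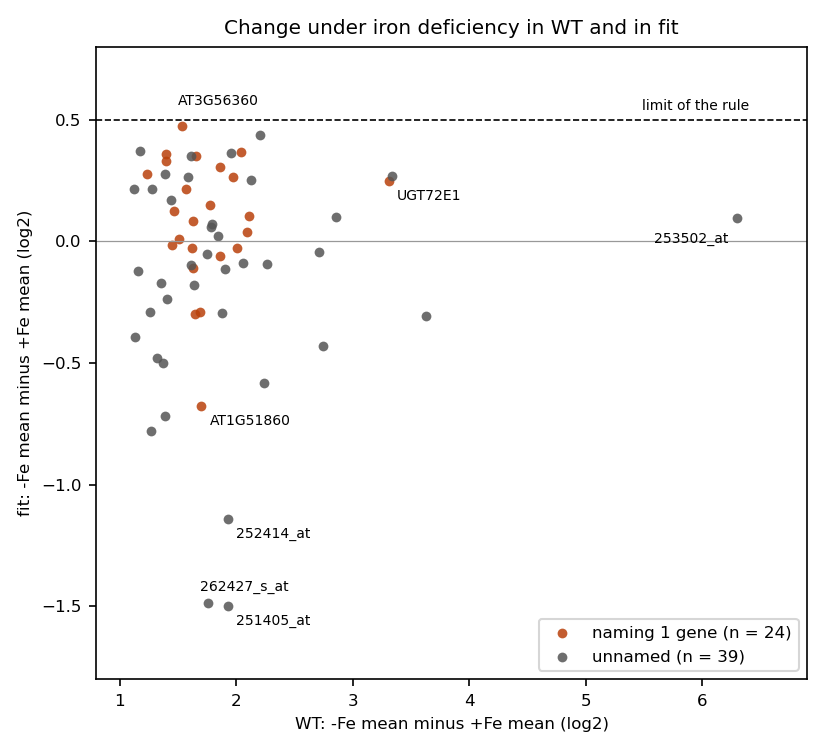
Each point is 1 of the 63 probe sets, with the change under iron deficiency in WT on the horizontal axis and in fit on the vertical axis, both as differences of group means on the log2 scale. All points lie under the dashed limit at 0.5 by construction, most lie near 0 in fit, and 253502_at stands alone at 6.30 in WT.

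The limits of the rule cut through a continuous range. Just inside the WT limit were 263176_at, 251405_at and 247618_at, with gaps between the WT groups of 1.00, 1.01 and 1.03. Just outside it were AT2G39690, AT1G49000 and AT4G26470, with gaps of 0.99, 0.97 and 0.97. Just inside the limit on fit were AT3G56360, 261895_at and 264071_at, with changes of 0.48, 0.44 and 0.37, and just outside were 266712_at, AT1G05700 and AT1G60610, with changes of 0.502, 0.51 and 0.53.

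Among the 24 named genes, 6 encode enzymes, 3 protein kinases, 2 RING-H2 proteins and 3 proteins with interaction domains, and no role is given here for the other 10. None of the 24 is among the 114 genes of the iron, coumarin, metal and methionine lists used here, and the 39 unnamed probe sets could not be compared with those lists. That absence was largely fixed in advance. Only 24 of the 114 list genes were measured by a probe set naming them alone, and the rule sets aside AT3G13610, BGLU42, ZIP9 and others of them by name. The remaining list genes may stand among the unnamed probe sets, the 39 included. The increase in WT of the 24 named genes had a median of 1.65, and their change in fit had a median of 0.11. In WT limma called 13 of them higher, against 0.356% of all probe sets. Nothing is read from that count, because the same arrays chose them. No 2 of the 24 were neighbours in the RefSeq gene order, and the closest pair, AT5G19890 and AT5G19970, stood 8 genes apart on chromosome 5.

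**Figure D3:**
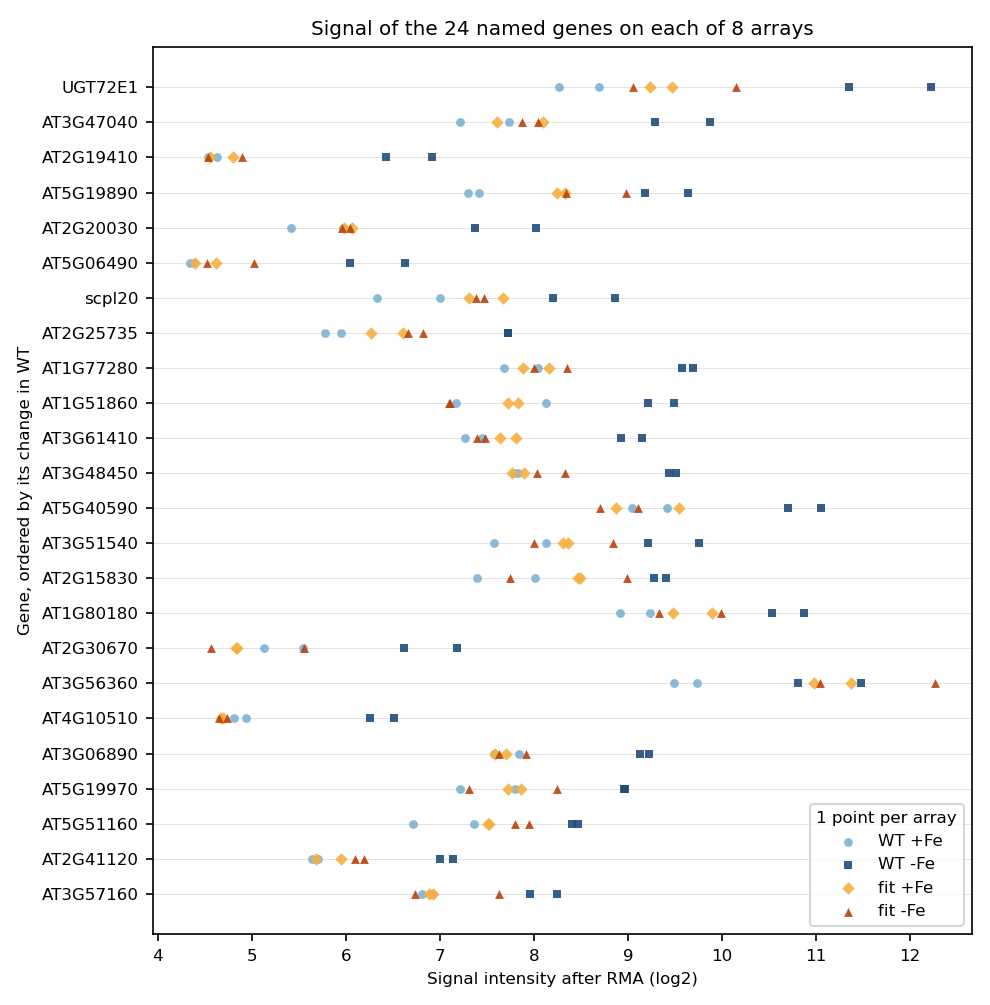
The log2 signal of the 24 named genes is shown with 1 point per array, and the shape and colour give the group. The WT -Fe squares lie to the right of the WT +Fe circles by at least 1 for every gene, as the rule requires, and only for AT3G56360 do the fit symbols reach them.

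The enzymes held the named gene of largest increase. UGT72E1, a UDP-glucosyltransferase that acts on phenylpropanoid aldehydes, had log2 signals of 8.69 and 8.27 in WT +Fe, 12.22 and 11.35 in WT -Fe, 9.47 and 9.24 in fit +Fe and 10.15 and 9.05 in fit -Fe. It was 9.90-fold higher in iron-deficient WT roots (log2 3.31, SE 0.41), and all 4 fit arrays lay between the WT groups without reaching either. Under iron deficiency its mean in fit was 4.55-fold lower than in WT (log2 -2.19, SE 0.41), which was not called.

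AT5G19890, a class III peroxidase, had 7.30 and 7.42 in WT +Fe, 9.63 and 9.18 in WT -Fe, 8.24 and 8.34 in fit +Fe and 8.98 and 8.34 in fit -Fe. Its fit arrays were also intermediate, and fit without iron differed from WT by -0.75, which was not called and was -0.43 without fit -Fe replicate 2. AT3G47040, a glycoside hydrolase of family 3, had 7.74 and 7.22 in WT +Fe, 9.87 and 9.29 in WT -Fe, 7.61 and 8.10 in fit +Fe, and 8.04 and 7.87 in fit -Fe. In that gene the 4 fit arrays overlapped or adjoined the WT +Fe arrays and stayed more than 1 below WT -Fe.

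AT4G10510, a subtilisin-like protease, was dim and nearly constant outside WT -Fe, with 4.82 and 4.94 in WT +Fe, 6.52 and 6.26 in WT -Fe, 4.67 and 4.69 in fit +Fe and 4.65 and 4.74 in fit -Fe. It was called lower in fit than in WT under iron deficiency, at -1.69 (SE 0.18). The serine carboxypeptidase-like gene scpl20 had 7.004 and 6.34 in WT +Fe, 8.86 and 8.20 in WT -Fe, 7.67 and 7.31 in fit +Fe and 7.47 and 7.39 in fit -Fe, so that its fit arrays lay between the WT groups. AT2G30670, of the short-chain dehydrogenase family, had 5.55 and 5.13 in WT +Fe, 7.19 and 6.62 in WT -Fe, 4.84 and 4.85 in fit +Fe and 4.57 and 5.55 in fit -Fe. It was the only named enzyme besides AT4G10510 with both fit +Fe arrays under both WT +Fe arrays.

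The protein kinases stayed near the WT +Fe level in fit. AT2G19410, a kinase with a U-box domain, had 4.63 and 4.53 in WT +Fe, 6.91 and 6.42 in WT -Fe, 4.56 and 4.80 in fit +Fe and 4.90 and 4.54 in fit -Fe, and was 3.86-fold lower in fit than in WT without iron. AT1G77280 had 8.04 and 7.68 in WT +Fe, 9.70 and 9.57 in WT -Fe, 7.89 and 8.16 in fit +Fe and 7.9963 and 8.35 in fit -Fe. Their 4 fit arrays and 2 WT +Fe arrays overlapped.

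AT1G51860, of the leucine-rich repeat receptor kinases, had 8.13 and 7.17 in WT +Fe, 9.49 and 9.21 in WT -Fe, 7.72 and 7.83 in fit +Fe and 7.10 and 7.10 in fit -Fe. Its fit signal was lower without iron than with it, at -0.68 between means and with no overlap, although that change was not called. Under iron deficiency it was called lower in fit than in WT, at -2.25 (SE 0.30), the largest such difference among the named genes.

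Both RING-H2 proteins belong to the ATL family, whose members act as ubiquitin ligases. AT5G06490 had 4.35 and 4.38 in WT +Fe, 6.04 and 6.63 in WT -Fe, 4.63 and 4.40 in fit +Fe and 4.53 and 5.03 in fit -Fe. AT2G20030 had 5.97 and 5.42 in WT +Fe, 8.03 and 7.37 in WT -Fe, 5.98 and 6.07 in fit +Fe and 6.04 and 5.96 in fit -Fe. The increase in WT was alike in size, 1.97 and 2.00, and the change in fit was 0.27 and -0.03.

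Of the genes with interaction domains, AT3G48450 is of the RIN4/NOI family, whose founding member RIN4 regulates immune receptors. It had 7.79 and 7.84 in WT +Fe, 9.43 and 9.51 in WT -Fe, 7.90 and 7.77 in fit +Fe and 8.33 and 8.04 in fit -Fe. Here both fit -Fe arrays lay above the other fit and WT +Fe arrays, by a change of 0.35 within fit that was not called.

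AT5G40590, with C1 domains, had 9.42 and 9.04 in WT +Fe, 11.05 and 10.70 in WT -Fe, 9.54 and 8.87 in fit +Fe and 8.71 and 9.11 in fit -Fe, and was 3.91-fold lower in fit without iron. AT5G51160, of the ankyrin repeat family, had 7.36 and 6.72 in WT +Fe, 8.47 and 8.40 in WT -Fe, 7.51 and 7.52 in fit +Fe and 7.80 and 7.95 in fit -Fe. Its 4 fit arrays lay between the WT groups, and under iron deficiency fit differed from WT by -0.56, which was not called.

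Of the 10 named genes for which no role is given, 4 were called higher in WT, against 0.356% of all probe sets. The rule used the same arrays, so nothing is read from that count. The 4 were AT2G25735 by 1.86, AT3G61410 by 1.69, AT3G06890 by 1.47 and AT2G41120 by 1.40. The other 6, AT1G80180, AT2G15830, AT3G51540, AT3G56360, AT5G19970 and AT3G57160, had increases between 1.24 and 1.63 and were not called. AT3G61410 and AT3G06890 were called lower in fit than in WT under iron deficiency, at -1.60 (SE 0.18) and -1.41 (SE 0.19).

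AT3G56360 was the named gene of highest fit signal relative to WT. It had 9.73 and 9.49 in WT +Fe, 11.48 and 10.81 in WT -Fe, 11.38 and 10.98 in fit +Fe and 12.26 and 11.04 in fit -Fe. With iron its fit arrays already lay at the level of iron-deficient WT, 1.56 above WT +Fe, and without iron its fit mean was 0.51 above WT with overlapping arrays. It was the only one of the 63 with a higher mean in fit than in WT under iron deficiency, and that difference was -0.10 and 1.12 without fit -Fe replicate 1 or 2, and 0.85 and 0.17 without WT -Fe replicate 1 or 2.

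The unnamed probe sets held the largest increases. The 5 with the widest gap between the WT groups were 253502_at, 262412_at, 252145_at, 264710_at and 254396_at. 253502_at had 4.24 and 4.02 in WT +Fe, 10.49 and 10.37 in WT -Fe, 3.59 and 3.38 in fit +Fe and 3.53 and 3.64 in fit -Fe. Its WT mean was 78.7-fold higher without iron, a ratio taken against a level under the 25th percentile, and all fit arrays lay below every WT array.

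262412_at had 6.24 and 6.08 in WT +Fe, 10.17 and 9.42 in WT -Fe, 6.54 and 6.37 in fit +Fe and 6.58 and 5.72 in fit -Fe. 252145_at had 3.95 and 4.18 in WT +Fe, 7.30 and 7.50 in WT -Fe, 4.17 and 4.13 in fit +Fe and 4.1002 and 4.73 in fit -Fe. Both increased more than 8-fold in WT, by 12.4-fold and 10.1-fold, while their fit arrays stayed around the WT +Fe level.

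264710_at and 254396_at were 7.26-fold and 6.71-fold higher in iron-deficient WT. In fit without iron 264710_at had 5.31 on replicate 1 and 6.64 on replicate 2, on either side of its fit +Fe arrays at 6.03 and 5.73, and 254396_at had 4.99 and 5.47 against 6.08 and 5.25. Neither reached its WT -Fe level, which was 8.47 and 8.86 for the former and 8.28 and 8.14 for the latter. Over all 39 unnamed probe sets the increase in WT had a median of 1.76 and the change in fit a median of -0.09.

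Under iron deficiency the mean in fit was below that in WT for 62 of the 63, with a median difference of -1.48, against 0.03 over all probe sets. The rule leaves little room for another direction. Both fit -Fe arrays lay under both WT -Fe arrays for 60 of the 63, against 11.1% of all probe sets, the exceptions being AT3G56360, 262427_s_at and 267137_at. limma called 25 lower, against 0.198% of all probe sets called lower and 0.0747% called higher. That count was 5 and 7 without WT -Fe replicate 1 or 2, 13 without either WT +Fe array, 11 without either fit +Fe array, and 2 with only the 4 arrays compared. The median difference was -1.53 between the arrays of replicate 1 and -1.48 between those of replicate 2, which have the high control ratios, and 62 of the 63 were lower in fit on each pair. The root hair markers EXPA7 and EXPA18 differed the same way, by -1.30 and -1.03, without being called by limma but with an unadjusted p under 0.05 for both, and their part in this result was not tested.

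The 7 named genes among the 25 were AT2G19410, AT3G48450, AT3G61410, AT4G10510, AT3G06890, AT5G40590 and AT1G51860. For the response in fit minus that in WT, limma called 4 of the 63 lower, 253502_at, 262412_at, 252145_at and 253658_at, against 0.0659% of all probe sets called lower and 0.00879% called higher. Without any 1 of the WT arrays or of the fit +Fe arrays that count was 1, and without fit -Fe replicate 2 it was 8. Both responses were used by the rule, so nothing is read from the count.

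How far fit moved along the WT increase differed between genes. The distance of the fit -Fe mean from the WT +Fe mean, as a percent of the increase in WT, had a median of 17.6%. It was negative for 18 probe sets, from 0 to 25% for 23, from 25 to 50% for 17, from 50 to 75% for 4 and higher for 1, classes that were drawn after the values were seen. UGT72E1 stood at 33.9%, AT5G51160 at 59.8% and AT5G19890 at 63.4%, whereas AT2G19410 stood at 6.63% and AT1G51860 at -32.3%.

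With sufficient iron the fit mean was above the WT mean for 50 of the 63, with a median difference of 0.24, against 0.00 over all probe sets. The median was 0.13 without WT +Fe replicate 2. Choosing probe sets for low WT +Fe arrays favours this direction, so it is given as a description. Both fit +Fe arrays lay above both WT +Fe arrays for 31 of the 63, against 17.3% of all probe sets, and below them for 6, against 16.5%. limma called 0 of the 63, against 0.00879% of all in either direction, and 13 of the 63 and 418 of all had an unadjusted p under 0.05. Without either fit -Fe array, 1 was called. In 48 of the 63 the means differed by less than 0.5, in 13 fit was higher by at least 0.5 and in 2 it was lower by at least 0.5.

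**Figure D4:**
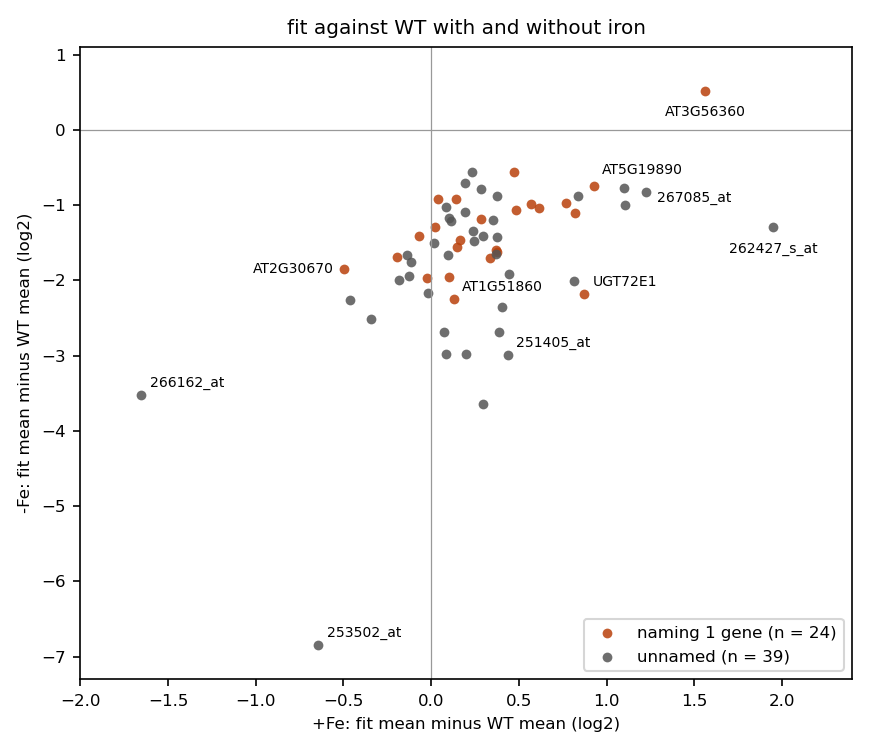
Each point is 1 of the 63 probe sets, with the difference of the fit mean from the WT mean under iron sufficiency on the horizontal axis and under iron deficiency on the vertical axis, both on the log2 scale. Only AT3G56360 lies above 0 on the vertical axis, 253502_at and 266162_at are low on both, and 262427_s_at is the farthest to the right at 1.95.

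Probe sets that were high in fit with iron made up a small set, singled out after their values were seen. In 5 of the 63 the fit +Fe mean had reached at least 75% of the WT increase: AT3G56360, 262427_s_at, 267085_at, 267137_at and 267119_at. 262427_s_at had 8.97 and 9.26 in WT +Fe, 10.76 and 11.00 in WT -Fe, 11.11 and 11.03 in fit +Fe and 8.21 and 10.95 in fit -Fe. The suffix of its identifier marks probes that match several transcripts.

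267085_at had 5.07 and 5.15 in WT +Fe, 6.26 and 6.50 in WT -Fe, 6.41 and 6.27 in fit +Fe and 4.86 and 6.26 in fit -Fe. 267137_at had 4.66 and 4.67 in WT +Fe, 5.81 and 6.27 in WT -Fe, 5.96 and 5.57 in fit +Fe and 4.47 and 6.07 in fit -Fe. In each of these 3 the 2 fit -Fe arrays disagreed by more than 1, with replicate 1 at or under the WT +Fe level and replicate 2 near the WT -Fe level. 267119_at showed the same order, with 6.12 on fit -Fe replicate 1 and 7.03 on replicate 2, against 6.26 and 6.12 in WT +Fe and 7.45 and 7.69 in WT -Fe. The high control ratio of replicate 2 moved with this split, and its part was not tested.

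In 266162_at, 253502_at, 251125_at, AT4G10510 and 251942_at, singled out after their values were seen, the fit arrays lay under all WT arrays whatever the iron supply. The difference with iron was not called in any of them. 266162_at had 9.07 and 8.57 in WT +Fe, 11.01 and 10.88 in WT -Fe, 7.17 and 7.16 in fit +Fe and 7.18 and 7.65 in fit -Fe. Its fit mean differed from the WT mean by -1.65 with iron and -3.53 without. The differences were -0.64 and -6.84 for 253502_at, dim in both genotypes with iron, and -0.46 and -2.27 for 251125_at.

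The lowest changes within fit were those of 251405_at, 262427_s_at and 252414_at. 251405_at had 8.08 and 7.14 in WT +Fe, 9.99 and 9.09 in WT -Fe, 8.29 and 7.81 in fit +Fe and 6.80 and 6.29 in fit -Fe. 252414_at had 7.56 and 7.48 in WT +Fe, 9.49 and 9.40 in WT -Fe, 7.36 and 8.46 in fit +Fe and 6.42 and 7.11 in fit -Fe. In these 2 probe sets the arrays of fit -Fe lay under those of fit +Fe and of WT +Fe, by changes within fit of -1.50 and -1.14 that were not called.

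The chosen probe sets were set beside the 50 with the same gap in WT whose fit mean increased by 0.5 or more. Both sets were chosen by these values, so no test is given. Their median increase in WT was 1.69 for the 63 and 2.01 for the 50, and with iron the fit mean was above the WT mean by a median of 0.24 and 0.52. It was above by at least 0.5 in 20.6% of the 63, in 25 of the 50 and in 2.35% of all probe sets. The 13 within both limits that were left out by name had a median increase of 3.08 in WT. With iron their fit mean differed from the WT mean by a median of -0.01. It was above by at least 0.5 in 1 of the 13 and below by at least 0.5 in 2.

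Of the iron genes on the lists, only some had a probe set naming them alone, and the rest may stand among the unnamed probe sets. Of 12 genes of iron uptake at the root surface, and of 12 of the methionine cycle, none had a probe set naming it alone. Of 21 genes of coumarin and phenylpropanoid synthesis 7 were measured. In WT 3 of them were called higher, against a background of 0.356% higher and 0.0747% lower, and in fit limma called 0, with 1 at an unadjusted p under 0.05. The 3 were AT3G12900 (S8H), BGLU42 and AT3G13610 (F6'H1), all set aside by the rule, and the 7 had a median change of 0.72 in WT and -0.05 in fit.

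Of 26 regulators of the iron deficiency response 14 were measured, with 5 called higher in WT, against 0.356% of all probe sets, and 3 in fit, against 0.132%. Their median change was 0.46 in WT and 0.18 in fit. Their changes in fit differed from gene to gene. AT1G47400 (IMA1), an IRON MAN peptide, changed by 4.92 in WT and 4.14 in fit, and the subgroup Ib factor BHLH101 by 4.09 and 2.41. AT1G74770 (BTSL1), a ubiquitin ligase with hemerythrin domains, increased by 2.68 in WT and had 0.86 in fit, where it was not called. AT1G18910 (BTSL2), of the same family and set aside by the rule, increased by 1.71 in WT and had -0.08 in fit, so its pattern was that of the chosen genes. The levels with iron differed too. There fit stood above WT by 2.08 for IMA1, 2.99 for BHLH101, 1.59 for BTSL1 and 0.24 for BTSL2, and only BHLH101 was called. Over the 14 regulators that difference had a median of 0.32. Without iron fit differed from WT by 1.30 for IMA1, 1.31 for BHLH101 and -0.23 for BTSL1, none of them called, and by -1.55 for BTSL2. Of 43 genes of metal transport, chelation and storage 3 were measured. The vacuolar metal transporter AT3G58060 (MTP8) was called higher in WT at 4.24 and had 0.01 in fit. ZIP9 and ZIP6, of the ZIP metal transporters, were not called in either genotype. ZIP9, set aside by the rule, had a change of 1.54 in WT and -0.07 in fit, and ZIP6 had -0.06 and -0.09. Without iron limma called 3 of the coumarin genes, 1 regulator and 2 of the metal genes lower in fit than in WT and none of the 3 lists' genes higher, against 0.198% of all probe sets called lower and 0.0747% called higher, with medians of -1.01, 0.13 and -2.17.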

How the data were processed

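Root RNA was measured on 8 Affymetrix arrays, 2 per group, with groups and replicate numbers taken from the sample titles. The deposited signal intensity values were made by the authors with RMA, per the submitters' processing notes; its version is unknown here. The intensity values were deposited on the linear scale, and log2 was taken of them. Of 22810 probe sets, 64 controls were left out. The platform table gave 1 gene for 13513 of the 22746 tested, several for 503 and none for 8730, and symbols came from RefSeq (TAIR10.1).

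Group means were fitted with limma 3.58.1 in R 4.3.3 (lmFit, eBayes, 4 residual and 3.82 prior degrees of freedom) to all 8 arrays, and adjustment was by Benjamini-Hochberg across all 22746. "Called" means an adjusted p under 0.05. SE is that of the fit, and no filter on dim probe sets was used. The fit was run on simulated data with independent noise on each array and an effect in WT -Fe only. Deviations of the real arrays correlated between groups, so that run does not check the calls made here. Nothing says whether the replicates came from separate cultures beyond the word biological, so the p-values measure the spread between these arrays, whose number limits precision.

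The members and gene lists were chosen with earlier results of these data known. All members naming 1 gene were named, with the 5 unnamed ones of widest WT gap and the 3 nearest each limit; other unnamed ones were chosen after their values were seen. Of 114 list genes 24 were measured by a probe set naming them alone, of 45 markers 5, and 1 list gene with another RefSeq name was left out. Roles are textbook knowledge. Promoter sequences were not analysed here, so the planned motif search was not run.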

Additional observations from a re-analysis of the deposited data

How the results depend on the processing

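Without 1 array the medians over the 63 probe sets ran from 1.56 to 1.82 for the increase in WT, from -0.10 to 0.03 for the change in fit, from 0.13 to 0.35 and from -1.59 to -1.37 for fit against WT with and without iron, and from -1.87 to -1.64 for the difference of responses. The counts of calls depended on the model. Of the 63, 37 were called in WT, 59 with the control ratio of each array as a covariate, 23 with only the arrays compared, 13 when only probe sets naming 1 gene were tested, which holds 24 of the 63, and 3 to 53 without 1 array. In fit 0 were called by limma (4 at an unadjusted p under 0.05), 1 with the replicate block, 1 with the covariate, 2 without both -Fe replicate 2 arrays and 0 to 1 without 1 array. For fit against WT with iron 0 became 1 with array weights, 2 with the covariate, 1 without both -Fe replicate 2 arrays, 1 with only the arrays compared and 0 to 1 without 1 array. Without iron 25 became 10 with array weights, 38 with the replicate block, 46 with the covariate, 15 without both -Fe replicate 2 arrays, 2 with only the arrays compared, 6 with 1-gene probe sets and 5 to 22 without 1 array. For the difference of responses 4 became 12 with the replicate block, 32 with the covariate, 8 without both -Fe replicate 2 arrays, 0 with 1-gene probe sets and 1 to 8 without 1 array. The cause was not tested, apart from the fewer probe sets or arrays that some alternatives hold by construction. The replicate numbers are only numbers in the labels; deviations of equal numbers correlated at 0.13 to 0.66 between groups. With the block, 55 were called in WT, among them AT1G80180, AT3G51540, AT3G56360 and AT5G19970, which were not called without it. The rule gave 235 and 25 probe sets with a WT gap of 0.5 and 1.5, 31 with a fit change under 0, 40 when the highest fit -Fe array had to stay within 0.5 of the lowest fit +Fe array, and 62 to 156 without 1 array, where it holds fewer conditions. After quantile normalisation it gave 65, of which 60 were shared, and after median centring 71, all 63 among them. Among the named genes and the 5 unnamed probe sets, AT3G56360 changed sign for fit against WT without iron, to -0.10 without fit -Fe replicate 1 and 1.12 without replicate 2, and no other changed sign in that comparison or in WT.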
